A study of Mus musculus with 25 samples.

Results

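The 37 genes described here are type I interferon-stimulated genes, taken by name from a list and found as rows among the 30749 genes of an expression table of sorted tumour macrophages. The rule uses gene names and no measured value, although the list was drawn up with earlier results of these data known. All 37 were detected strongly enough to be tested, of 17216 genes that were. The macrophages came from mice with glioblastoma, a fast-growing tumour of the brain, and were sorted as monocyte-derived macrophages (MDM, which enter the tumour from the blood) or as microglia (the resident macrophages of the brain). The series title asks whether tumour progression depends on such cells. RNA was sequenced in bulk after low-input amplification, so in every comparison fewer cells of a type and less RNA per cell cannot be told apart.

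The 21 tumour libraries fell into 8 groups. MDM were sorted from type 2 transplanted tumours (2 libraries), a type 2 spontaneous tumour (1), type 1 transplanted tumours (4) and type 1 spontaneous tumours (2). Microglia were sorted from type 2 transplanted, type 2 spontaneous, type 1 transplanted and type 1 spontaneous tumours (3 libraries each). The labels give no genotype, strain, age, sort gate or cell of origin for these tumour types, and 4 further libraries labelled as microglia of normal brain are not used here, so no tumour-free baseline stands behind the values. Nothing in the labels says whether libraries of 1 group come from different mice, so each p-value rests on library-to-library spread, part of which may be technical.

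Type I interferons signal through the receptor pair Ifnar1 and Ifnar2 and the kinases Jak1 and Tyk2 to a complex that holds Stat2 and Irf9 and binds interferon-stimulated response elements beside its target genes. The targets include sensors of viral RNA and DNA, enzymes that degrade or modify viral RNA, membrane proteins that block viral entry, and GTPases that attack the vacuoles of intracellular microbes. In the brain, microglia and infiltrating macrophages can show such a programme in infection, injury, ageing and tumours. Interferon gamma, made mainly by T and NK cells, acts at another element and shares some of these targets, among them the immunity-related GTPases Iigp1, Igtp and Irgm1.

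Promoter windows were available for 27 of the 37 members, as 31 RefSeq windows of the GRCm38.p6 assembly that run from 250 bases before to 50 bases after a start site. The core of the interferon-stimulated response element, searched on both strands as GAAA, any 2 bases and GAAA again, was present in 16 of the 27 genes, or 54.8% of their windows, against 3.44% of all 32851 windows. The gamma-activated site, searched as TTCNNNGAA, which reads the same on both strands, was present in 8 of the 27, or 25.8% of windows against 8.3% of all, and 5 genes held both. A match describes these letters and is not a measured binding site. The stretches below, from RefSeq and read along the gene's own strand from 5′ to 3′, show the element in members that hold it. Of the members shown, only Ifit3 and Oas1a were called in a comparison fitted to all libraries. Among other called members, Ifitm3 and Stat2 held the element, while Ifitm1, Oasl2 and Phf11d held neither motif in their windows. Capitals mark matches to either motif, joined where matches overlap or touch.
Isg15, a ubiquitin-like modifier, minus strand, chr4:156200859-156200908: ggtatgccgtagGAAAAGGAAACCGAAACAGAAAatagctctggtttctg
Ifit1, a binder of foreign capped RNA, plus strand, chr19:34640774-34640823: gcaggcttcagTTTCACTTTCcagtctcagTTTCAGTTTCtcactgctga
Ifit3, its partner, plus strand, chr19:34583369-34583423: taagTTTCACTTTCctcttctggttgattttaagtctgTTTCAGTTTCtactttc
Rsad2, the antiviral enzyme viperin, minus strand, chr12:26456543-26456592: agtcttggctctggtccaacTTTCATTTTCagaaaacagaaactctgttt
Oas1a, a synthetase of the signal for RNA decay, minus strand, chr5:120907526-120907575: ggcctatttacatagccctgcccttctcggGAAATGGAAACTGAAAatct
Igtp, an immunity-related GTPase, plus strand, chr11:58199496-58199545: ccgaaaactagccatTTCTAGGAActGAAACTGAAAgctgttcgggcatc
Irgm1, another GTPase of that family, minus strand, chr11:48871421-48871470: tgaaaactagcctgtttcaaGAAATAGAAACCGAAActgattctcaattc
Isg15 held overlapping response elements in 1 run, Ifit1 and Ifit3 held 2 separated ones in the reverse letters, and Igtp held a gamma-activated site just before a response element.

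Levels are normalised read counts, recovered from the deposited values. Recovered totals ran between 26530069 and 50365607 reads per library, and size factors between 0.62 and 1.55. A log2 fold change is a difference of group means of log2(normalised count + 1), with its standard error after the ± sign. The adjusted p is that of limma-trend, adjusted by Benjamini and Hochberg's method across the 17216 genes. Every group weighs the same in a contrast, so the single type 2 spontaneous MDM library counts as much as the 4 of type 1 transplanted MDM. A member is called higher or lower where that adjusted p is under 0.05. The share of all tested genes called is given for the limma-trend fit to all libraries. It is not given for counts at unadjusted p under 0.05, by voom or in alternative fits, so those counts stand without a background. Per kilobase of exon, the median level was highest for the membrane protein gene Ifitm3, at 31523 in MDM and 15024 in microglia. The lowest medians per kilobase were 89.7 for Mx2 in MDM and 25.4 for Ifitm1 in microglia, where MDM had 1466.

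**Figure D1:**
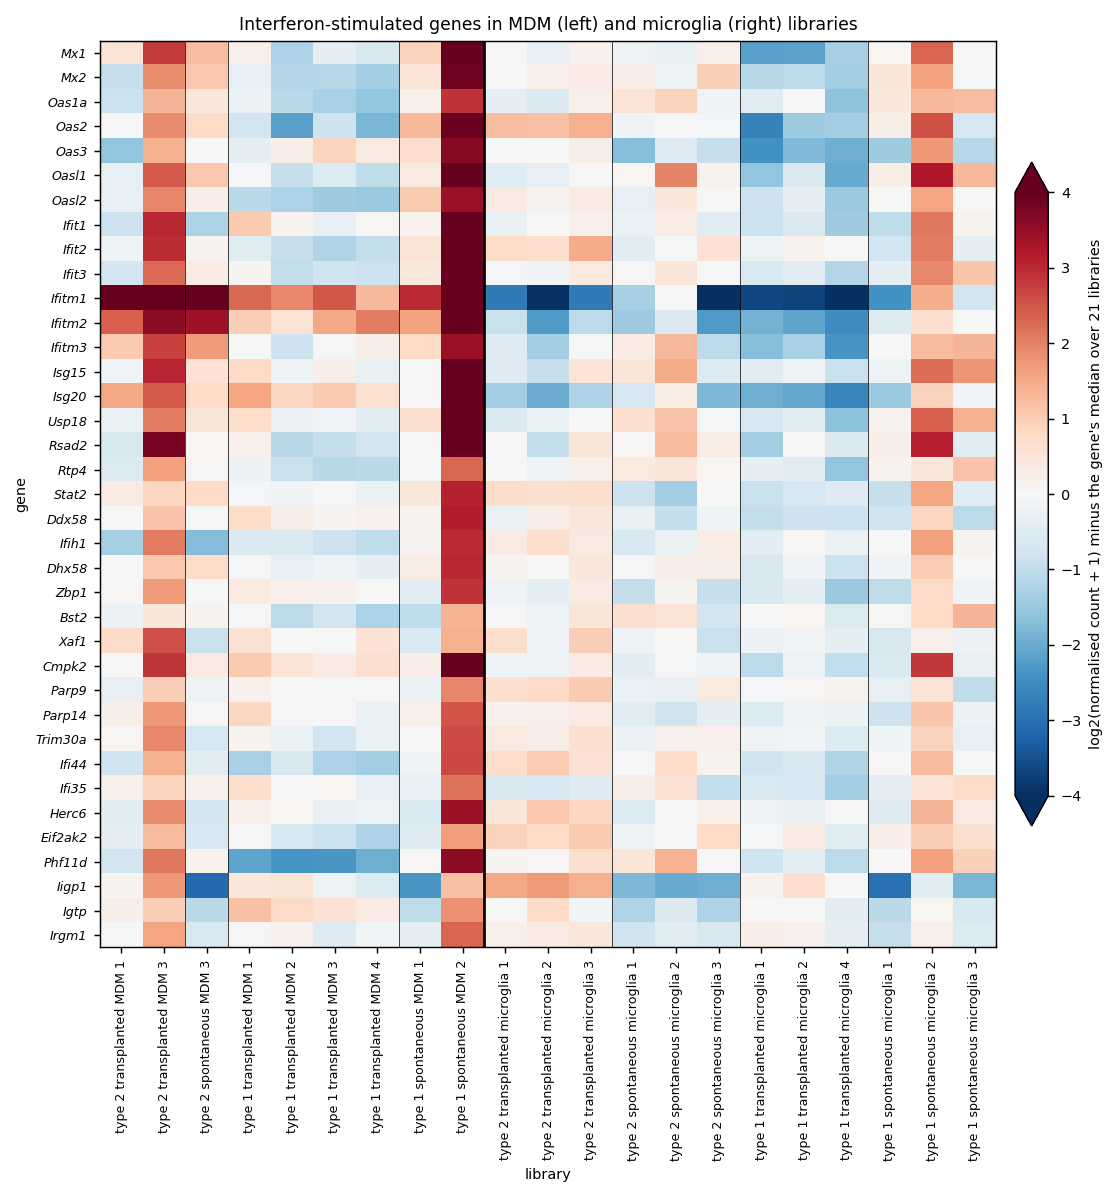
Level of each of the 37 genes (rows) in each of the 21 libraries (columns, MDM left of microglia), as the log2 difference from the gene's own median over the libraries; the colour scale covers -4 to 4. The column of type 1 spontaneous MDM library 2 is the highest of all for 35 of the 37 genes.

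Single libraries stood apart for much of the set, so the comparisons that use them are given with and without them. They were singled out by the levels of these same genes, so the fits without them are not independent tests. Type 1 spontaneous MDM library 2 was the highest of the 21 libraries for 35 of the 37 members, a rank it held for 13.2% of all tested genes. Against the other library of its group it was higher at every member, by a median of 7.46-fold. Rsad2 stood at 150392 in that library and 2591 in library 1, a ratio of 58.0. The smallest ratio was 4.11, for the apoptosis-linked gene Xaf1. Thus 37 of 37 members were at least 4-fold higher in library 2, as were 8.93% of all tested genes.

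The microglia library with the same number showed a smaller excess. Type 1 spontaneous microglia library 2 exceeded the geometric mean of its group's other 2 libraries at least 2-fold for 27 members (21.4% of all tested genes) and at least 4-fold for 10 (10.1%), with a median ratio of 2.76. The mitochondrial kinase gene Cmpk2 stood at 11541 there, against 1078 and 1340 in libraries 1 and 3, a ratio of 9.6. Rtp4, a chaperone of membrane receptors with antiviral activity, had a ratio of 0.864 and was the only member below 1. Type 2 transplanted MDM library 3 exceeded library 1 at least 2-fold for 31 members (18.7% of all tested genes) and at least 4-fold for 18 (8.28%), with a median ratio of 3.71. Its range ran between 0.656 for Ifitm1 and 21.8 for Rsad2. In type 2 transplanted microglia, library 3 exceeded the other 2 at least 2-fold for 1 member (8.81% of all tested genes) and at least 4-fold for 0 (3.14%), with a median ratio of 1.29.

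**Figure D2:**
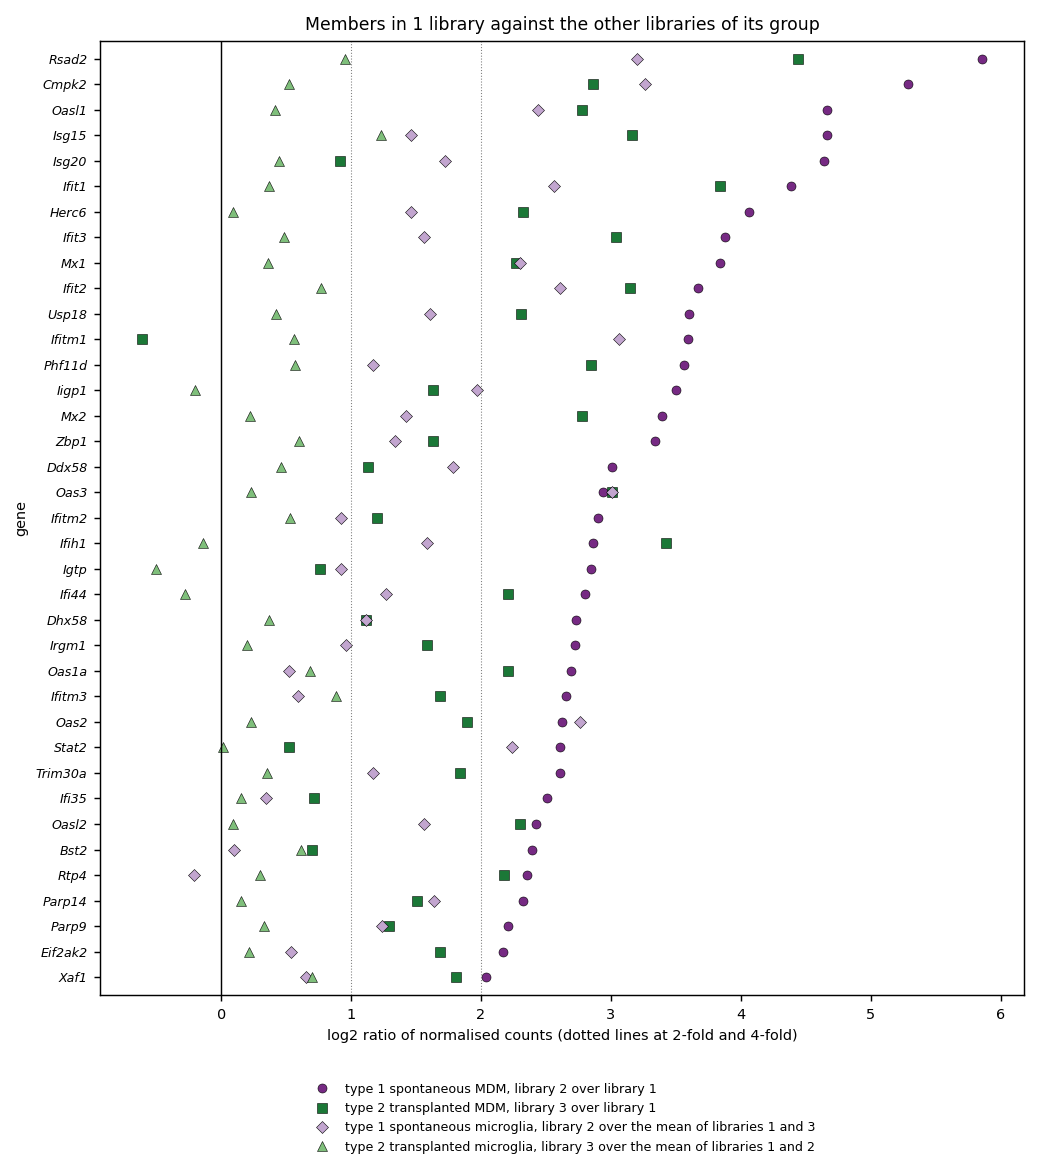
Log2 ratio of 1 library to the other libraries of its group (the geometric mean where there were 2) for each of the 37 genes, in 4 groups; the dotted lines mark 2-fold and 4-fold. All 37 points lie above 4-fold for type 1 spontaneous MDM, and 1 lies above 2-fold for type 2 transplanted microglia.

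Upstream of the set, Ifnb1 was also high in both type 1 spontaneous libraries numbered 2, and Irf7 in the MDM one. Ifnb1, which encodes interferon beta, was listed at 505 in type 1 spontaneous MDM library 2, against 7.33 in library 1. Type 1 spontaneous microglia had 940 in library 2, against 91.5 and 248 in libraries 1 and 3. Irf7, the transcription factor that amplifies interferon production, stood at 357098 and 34773 in MDM libraries 2 and 1 of that group. Marker levels of these libraries and of type 2 transplanted MDM library 3 also stood apart. The summed level of 12 MDM marker genes was 414029 in type 1 spontaneous MDM library 2 and 329324 in type 2 transplanted MDM library 3, against 98848 to 174205 in the other 7 MDM libraries. Type 1 spontaneous microglia library 2 had the lowest sum of 12 microglia markers among microglia, 664811 against 877361 to 1521701, and the highest sum of MDM markers, 49559 against 6523 to 36317. The part of these differences in the interferon-stimulated genes was not tested.

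Compared with microglia libraries, MDM libraries carried more transcript of 11 interferon-stimulated genes and less of 0. The 3 IFITM genes, whose products block the fusion of enveloped viruses with the cell, led the list, followed by Isg20, an exonuclease of single-stranded RNA, and Mx1, a dynamin-like GTPase. In all, 31 of the 37 members had a positive fold change, with a median of 0.68 against 0.07 over all tested genes. Against these 11 of 37 members higher and 0 of 37 lower stand 42.7% of all tested genes called, 23% higher in MDM and 19.8% lower. Unadjusted p was under 0.05 for 13 members, and voom on the recovered reads called 10 higher and 0 lower. B cell marker sums were 623 to 41706 in MDM and 557 to 2687 in microglia. In type 1 transplanted MDM, T and NK marker sums were 217945 to 245824, above MDM marker sums of 98848 to 136308. The same held in type 2 transplanted MDM library 1 (290382 against 174205) and in no other MDM library. The part of lymphocyte transcripts in the member differences was not tested.

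Ifitm1 had the widest difference. Its level in MDM ran between 500 and 19324 with a median of 1603, against 10.4 to 562 with a median of 27.8 in microglia. A single microglia library, the type 1 spontaneous library 2, overlapped the MDM range. The fold was 86.5 (log2 6.44 ± 0.57, adjusted p = 9.1e-08). Ifitm2 ran between 3335 and 51836 with a median of 9377 in MDM, against 406 to 3587 with a median of 960 in microglia, and was 15.1-fold higher in MDM (log2 3.92 ± 0.36, adjusted p = 1.1e-07). Again that 1 microglia library reached into the MDM range. Ifitm3 had a median of 21372 in MDM (6807 to 134520), against 10187 in microglia (2361 to 31023), and was 3.31-fold higher (log2 1.73 ± 0.38, adjusted p = 0.0011) with wide overlap. The 3 genes are neighbours on chromosome 7 (mm10), Ifitm1 at 140967429 to 140969827, Ifitm2 at 140954837 to 140959686 and Ifitm3 at 141009590 to 141010744. Ifitm2 and Ifitm3 are close in sequence, and the exons of Ifitm2 share 268 bases with Gm45717 on the same strand, so reads may be split between them.

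Isg20, on chromosome 7 at 78913396 to 78920396, had a median of 3616 in MDM (1735 to 43348), against 640 in microglia (282 to 3271). It was 6.52-fold higher in MDM (log2 2.7 ± 0.47, adjusted p = 0.00014), and 2 microglia libraries lay within the MDM range. Mx1 had a median of 1604 in MDM (473 to 30040), against 1027 in microglia (245 to 5604), so its ranges overlapped broadly. Its fold was 3.08 (log2 1.62 ± 0.44, adjusted p = 0.0064). No member separated the 9 MDM from the 12 microglia libraries completely, whereas 3.8% of all tested genes lay entirely above and 3.06% entirely below.

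**Figure D3:**
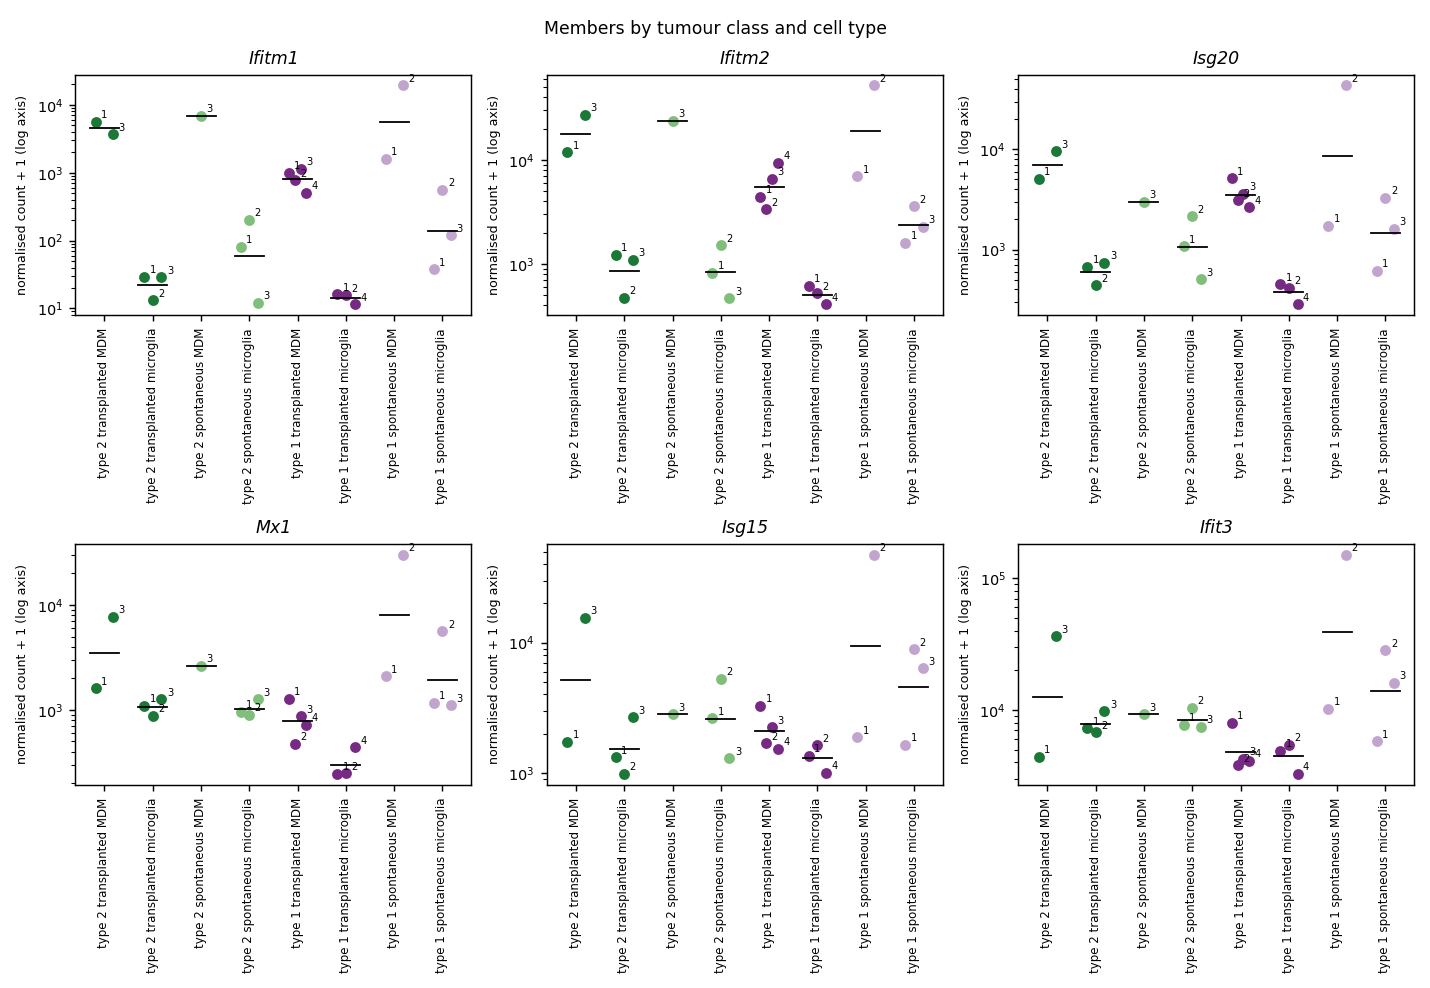
Normalised count (log axis) of Ifitm1, Ifitm2, Isg20, Mx1, Isg15 and Ifit3 in each library, by tumour class, with MDM left of microglia; the bar is the geometric mean of a group. Ifitm1 lies between 500 and 19324 in MDM and between 10.4 and 562 in microglia, while Ifit3 lies between 3794 and 150711 in MDM and between 3273 and 28422 in microglia.

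Among the sensing and signalling members, 3 of 5 were higher in MDM. Ddx58, which encodes the RNA sensor RIG-I, had a median of 3103 in MDM (2625 to 24367), against 1908 in microglia (1344 to 5034), a log2 fold change of 0.99 ± 0.33 with adjusted p = 0.021. Stat2, a part of the signalling complex, had a median of 4970 in MDM (3303 to 33324), against 2834 in microglia (1534 to 11732), a difference of 0.93 ± 0.33 with adjusted p = 0.028. Both ranges overlapped. Zbp1, a sensor of left-handed nucleic acid, was higher by 0.98 ± 0.37 (adjusted p = 0.037). The RNA sensor genes Ifih1 and Dhx58 had log2 fold changes of -0.30 and 0.66 and were not called.

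Of the 5 oligoadenylate synthetase genes, only Oas3 was called. Oas3 had a median of 1714 in MDM (448 to 16620), against 658 in microglia (251 to 4460), and was 2.66-fold higher in MDM (log2 1.41 ± 0.46, adjusted p = 0.019). Its fold was 2.34 ± 0.75 on the log2 scale within type 1 transplanted tumours and -0.16 ± 0.89 within type 2 transplanted tumours (adjusted p = 0.94). The IFIT genes had 0 of 3 called, with log2 fold changes between 0.42 and 0.77. The ISG15 system, made of the modifier Isg15, the protease Usp18 that removes it and the ligase Herc6 that attaches it, also had 0 of 3 called. Isg15 had a median of 2239 in MDM (1521 to 47344), against 1635 in microglia (981 to 8887), so the ranges overlapped. The immunity-related GTPases had 0 of 3 called, and Iigp1 had a log2 fold change of -0.22 ± 0.39. Among the other effectors, the ADP-ribosyltransferase gene Parp14 (0.78 ± 0.30, adjusted p = 0.046) and Ifi35 (0.75 ± 0.30, adjusted p = 0.049) were called beside Isg20.

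How far these calls rested on single libraries differed between genes. The calls of Ifitm1, Ifitm2, Ifitm3, Isg20 and Mx1 held when any 1 library was left out, in all 20 such fits. Mx1 was not called within type 1 transplanted (1.39 ± 0.72), type 2 transplanted (1.72 ± 0.86) or spontaneous tumours (1.69 ± 0.69) taken alone. Within spontaneous tumours Ifitm3 (1.39 ± 0.59) and Isg20 (2.03 ± 0.73) were not called either, while Ifitm1 and Ifitm2 were called in every class. Oas3, Stat2 and Ddx58 were no longer called without type 1 spontaneous MDM library 2, or without type 2 transplanted MDM library 3. Without that type 1 library 5 members were higher and 1 was lower, the lower one being Eif2ak2, which encodes the kinase PKR (-0.79 ± 0.25, adjusted p = 0.017). Without that type 2 library 5 were higher and Eif2ak2 was again lower (-0.73 ± 0.28, adjusted p = 0.041). Without library 1 of type 1 spontaneous MDM, 25 members were higher. Zbp1, Parp14 and Ifi35 lost their call in 9, 16 and 14 of the 20 fits. A further fit set aside 8 libraries as rich in transcripts of other cells, among them every type 1 transplanted MDM library. Its contrast therefore covered no type 1 transplanted tumours. Type 1 spontaneous MDM kept libraries 1 and 2, while type 1 spontaneous microglia library 2 was set aside. That microglia library was the highest of the 12 for 27 of the 37 members, against 13.2% of all tested genes. Type 2 transplanted MDM kept library 3 alone. The 8 were a chosen set and not a strict ranking, as that library 3 had the highest microglia marker sum among MDM, 245626. In that fit Stat2 (1.38 ± 0.47), Ddx58 (1.31 ± 0.51), Zbp1 (1.39 ± 0.58) and Ifi35 (0.82 ± 0.51) were no longer called. Oas2 stood at 1.44 ± 0.44 and Oasl2 at 1.37 ± 0.41.

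With the 3 libraries that stood apart left out together, 9 members were higher and 6 lower in MDM, and the median of the members was 0.05. The IFITM genes, Isg20, Mx1, Oas3, Stat2, Ddx58 and Cmpk2 were higher in that fit, and Ifih1, Ifi44, Herc6, Eif2ak2, Phf11d and Iigp1 were lower. Eif2ak2 then stood at -0.95 ± 0.22 and Herc6 at -0.57 ± 0.18, where the fit to all 21 libraries gave Herc6 0.11 ± 0.42. The 3 libraries were picked because these members were high in them, and 2 of them are MDM. Leaving them out therefore lowers the members in MDM by construction, and the calls of this fit are not independent tests. It also leaves a single library each in type 1 spontaneous and type 2 transplanted MDM.

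**Figure D4:**
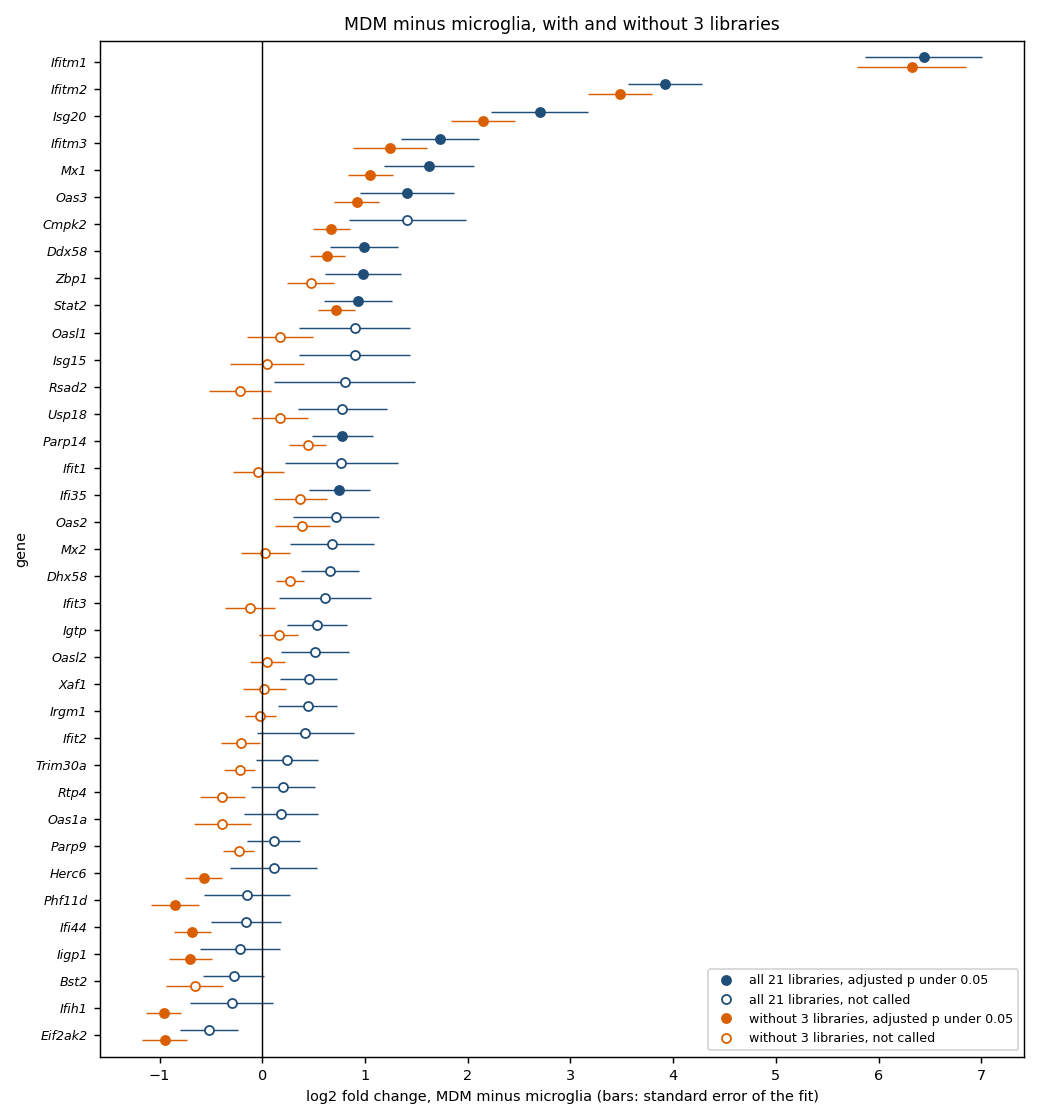
Log2 fold change of MDM over microglia with its standard error for each of the 37 genes, from all 21 libraries and without 3 libraries. Those 3 stood apart and were picked by the levels of these same genes. Filled points are called. The IFITM genes, Isg20 and Mx1 are filled in both fits, and Herc6 changes from 0.11 to -0.57.

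Upstream of these genes, MDM and microglia differed in interferon transcripts. Of 4 tested ligand genes, Ifnb1 (-4.29 ± 0.73, adjusted p = 0.00011) and Ifna2 (-1.86 ± 0.58, adjusted p = 0.014) were lower in MDM. Ifnb1 had a median of 0 in MDM, with 5 of 9 libraries at 0 and a highest of 505, against 11.9 to 940 with a median of 73.4 in microglia, so its fitted fold depends on the added count of 1. Ifng, which encodes interferon gamma, was higher in MDM (5.94 ± 0.87, adjusted p = 2.1e-05). T and NK cell markers were higher in MDM for 15 of 15 tested genes, with sums of 11764 to 290382 in MDM and 115 to 5551 in microglia, and their part in the Ifng difference was not tested. Of 9 receptor and kinase genes 5 were higher and 3 lower, among them Ifnar1 higher by 0.76 ± 0.19 (adjusted p = 0.0028) and Ifnar2 lower by -0.45 ± 0.14 (adjusted p = 0.015). Of 8 transcription factor genes 6 were higher and 1 lower, with Irf9 at 0.80 ± 0.14 (adjusted p = 9.9e-05), Irf7 at 1.52 ± 0.39 (adjusted p = 0.004) and Irf3 at 0.51 ± 0.17 (adjusted p = 0.021).

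In the wider pathway, nucleic acid sensing genes went both ways, 5 of 18 higher and 5 lower in MDM. Tlr8, an endosomal receptor of RNA, was higher (5.46 ± 0.89), while Tlr7 (-1.79 ± 0.29), Tlr3 (-1.77 ± 0.31) and their transporter Unc93b1 (-1.09 ± 0.17) were lower. A list of negative regulators had 9 of 16 genes higher and 0 lower. The list is mixed, as it also holds genes such as Adar, Rnaseh2a and Dusp1 that are not specific inhibitors of interferon signalling. The nucleotide hydrolase gene Samhd1 stood at 2.42 ± 0.36 and the cytokine signalling inhibitor Socs1 at 2.26 ± 0.38. Of 58 other interferon-stimulated genes 29 were higher and 2 lower, with a median of 0.88. Those with the smallest p were Lgals3bp (-1.81 ± 0.22), Mndal (4.99 ± 0.63), Ifi47 (3.77 ± 0.49) and Gm4951 (-2.47 ± 0.33). Of 19 genes induced mainly by interferon gamma 10 were higher and 0 lower, led by Ciita, the activator of MHC class II genes (4.30 ± 0.41).

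Within microglia, transplanted tumours differed from spontaneous tumours at 1 member, Iigp1, which was 6.72-fold higher in transplanted tumours. Of all tested genes 1.84% were called, 1% higher and 0.836% lower. Of the 37 members 26 had a negative fold change, 0 of them called, Eif2ak2 stood at 0 after rounding, and the median was -0.58 against 0.04 over all genes. Unadjusted p was under 0.05 for 12 members, and voom on the recovered reads also called 1 higher and 0 lower.

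Iigp1, an effector GTPase that coats and disrupts the vacuoles of intracellular parasites, stood at 5743, 6514 and 5306 in type 2 transplanted and at 2182, 3150 and 1981 in type 1 transplanted microglia. Against these, it stood at 566, 487 and 513 in type 2 spontaneous and at 251, 1468 and 559 in type 1 spontaneous microglia. Every transplanted library lay above every spontaneous one, as for 0.714% of all tested genes. The log2 fold change was 2.75 ± 0.48 (adjusted p = 0.005), and the call held in all 21 fits that left out 1 library. It was 3.48 ± 0.68 within type 2 tumours (adjusted p = 0.019) and 2.01 ± 0.68 within type 1 tumours (adjusted p = 0.23). Without the 8 libraries set aside as rich in transcripts of other cells, Iigp1 stood at 2.94 ± 0.67 and was no longer called. The 8 include 2 of the 3 type 1 transplanted microglia libraries, so a single library is left in that group.

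The other 2 GTPases of the family had positive fold changes that were not called. Igtp stood at 8183, 14233 and 7627 in type 2 transplanted and 8104, 8166 and 5915 in type 1 transplanted microglia, against 3549, 5478 and 3495 in type 2 spontaneous and 3909, 8560 and 5220 in type 1 spontaneous microglia (0.81 ± 0.36, adjusted p = 0.22). The single spontaneous library within the transplanted range was type 1 library 2. Without both type 1 spontaneous libraries numbered 2, Igtp was higher by 0.97 ± 0.23 (adjusted p = 0.033). Its exons share 162 bases with Irgm2 on the same strand. Irgm1 had a log2 fold change of 0.70 ± 0.36 (adjusted p = 0.29).

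The members with the next smallest p had negative fold changes that did not pass the test. Ifitm3 had 8549, 4799 and 11824 in type 2 transplanted and 3720, 4982 and 2361 in type 1 transplanted microglia. Spontaneous microglia had 15394, 30343 and 5877 in type 2 and 12193, 29214 and 31023 in type 1 tumours (-1.75 ± 0.46, adjusted p = 0.06). The groups overlapped through type 2 spontaneous library 3. Ifitm1 had a log2 fold change of -2.33 ± 0.70 (adjusted p = 0.091). Oasl1, an oligoadenylate synthetase-like gene that restrains Irf7, was the only member whose transplanted libraries all lay below the spontaneous ones, 637 to 2562 against 2685 to 23723, as for 0.517% of all tested genes, and it was not called (-1.98 ± 0.66, adjusted p = 0.12). Fitted without both type 1 spontaneous libraries numbered 2, the comparison called 3 members higher, Iigp1, Igtp and Parp9, and Ifitm3 lower. The exons of Parp9 share 458 bases with Dtx3l on the other strand, and the strand of counting is not given.

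**Figure D5:**
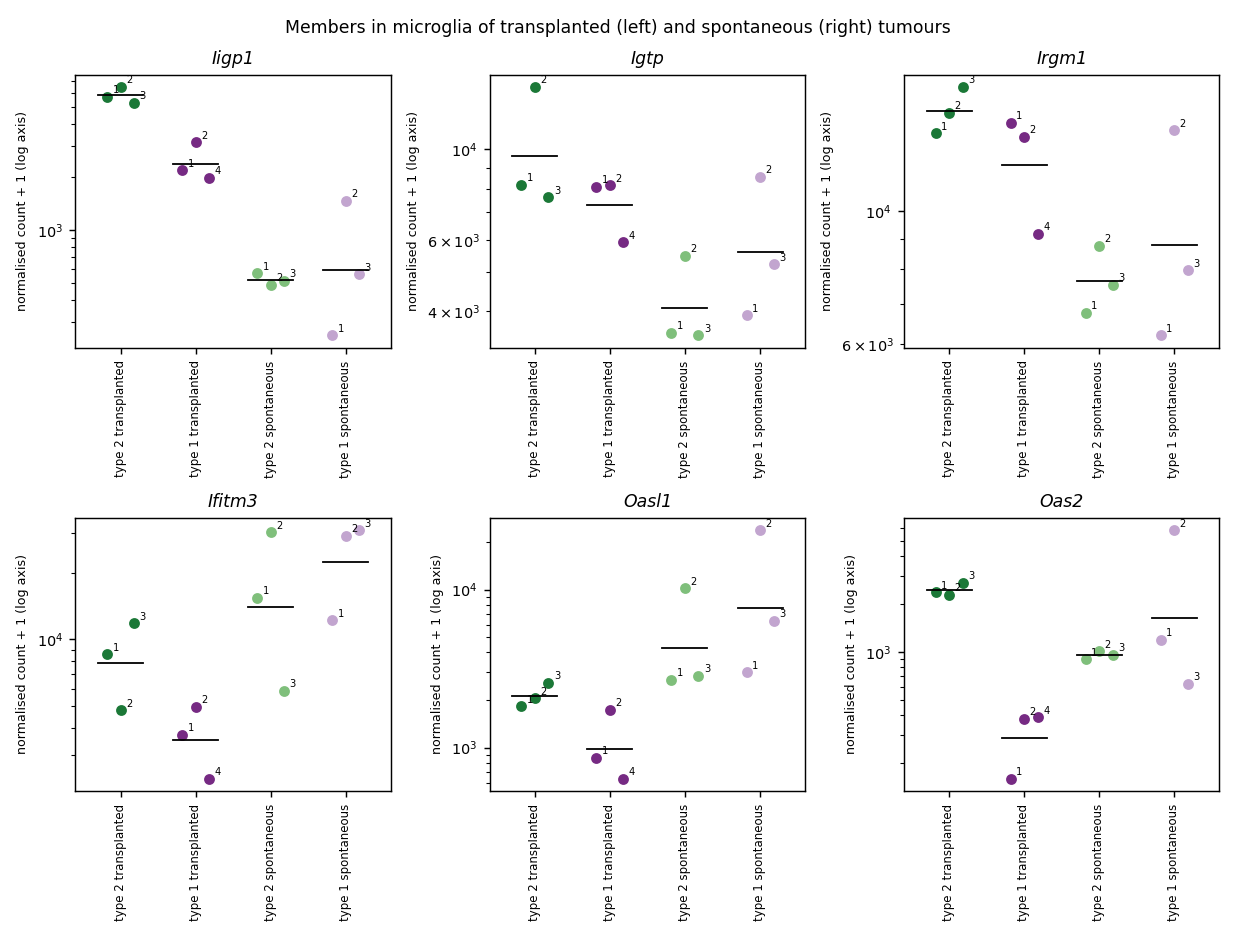
Normalised count (log axis) of Iigp1, Igtp, Irgm1, Ifitm3, Oasl1 and Oas2 in each microglia library, with transplanted left of spontaneous tumours. Iigp1 has its 6 transplanted libraries between 1981 and 6514 and its 6 spontaneous libraries between 251 and 1468.

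Among the genes around the pathway, Irf1 (1.35 ± 0.27, adjusted p = 0.015), a transcription factor of the response to interferon gamma, was higher in transplanted microglia. Irf7 had a log2 fold change of -1.53 ± 0.48 (adjusted p = 0.10), Irf9 of -0.31 ± 0.16 (adjusted p = 0.31) and Irf3 of -0.19 ± 0.21 (adjusted p = 0.66). Of 19 genes induced mainly by interferon gamma 5 were higher and 0 lower, with a median of 1.62. They were the chemokine gene Cxcl9 (3.56 ± 0.52, adjusted p = 0.0013), Ciita (3.37 ± 0.50, adjusted p = 0.0015), the guanylate-binding genes Gbp4 (2.88 ± 0.44) and Gbp6 (1.96 ± 0.36), and Irf1, which stands in both lists. Of 58 other interferon-stimulated genes 1 was higher, the GTPase gene Irgm2 (1.45 ± 0.32, adjusted p = 0.029). The nucleic acid sensing genes and the receptors and kinases had 0 called, with Ifnar1 at 0.24 ± 0.23 and Ifnar2 at -0.13 ± 0.17. Ifnb1 had a log2 fold change of -2.75 ± 0.89 (adjusted p = 0.11) and Ifng of 0.14 ± 1.06 (adjusted p = 0.97). In the mixed list of negative regulators 1 of 16 was higher, Ubash3a, a gene of T cells. T and NK cell markers were higher in transplanted tumours for 7 of 15 genes, with sums of 301 to 5551 against 115 to 369 in spontaneous tumours. Their part in the Iigp1 difference was not tested. MDM markers were lower for 2 of 12 genes in the same comparison.

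Tumour type made no called difference among the members in microglia. Type 2 against type 1 microglia had 0 of 37 members called by limma-trend and 0 by voom on the recovered reads, while 0.47% of all tested genes were called, 0.0465% higher and 0.424% lower. Of the members 26 were positive, with a median of 0.24 against -0.02 over all genes, and 1 had an unadjusted p under 0.05. That was Oas2, a synthetase of the activator of RNase L, at 2370, 2287 and 2730 in type 2 transplanted and 897, 1009 and 955 in type 2 spontaneous microglia. Type 1 microglia had 158, 376 and 385 in transplanted and 1185, 5842 and 630 in spontaneous tumours (1.16 ± 0.51, adjusted p = 0.51). The next were Ifi44 (0.75 ± 0.41, adjusted p = 0.64) and Parp9 (0.51 ± 0.32, adjusted p = 0.69). Without both type 1 spontaneous libraries numbered 2, Oas2 was higher in type 2 (1.62 ± 0.36, adjusted p = 0.045). Of the other pathway lists, only that of interferon gamma had a called gene, Cxcl9, which was lower in type 2 (-2.40 ± 0.52, adjusted p = 0.046). No member separated type 2 from type 1 microglia completely, as 0.128% of all tested genes did above and 0.325% below. Library 4 of type 1 transplanted microglia was the lowest of the 12 for 19 of the 37 members, against 3.56% of all tested genes. T and NK cell markers were lower in type 2 for 1 of 15 genes.

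Whether the effect of tumour type depended on the model was tested as an interaction in microglia. All 37 estimates were positive, with a median of 1.39 against 0 over all genes, and 0 members were called, beside 0.0116% of all tested genes, 0.00581% in each direction. Unadjusted p was under 0.05 for 6 members, and voom called 0. Oas2 had the smallest p (3.89 ± 1.02, adjusted p = 0.36), followed by Stat2 (2.21 ± 0.80, adjusted p = 0.60) and Ifitm2 (2.26 ± 0.87, adjusted p = 0.64). Within transplanted tumours all 37 members had a positive type 2 over type 1 fold change with a median of 0.80, and within spontaneous tumours 36 had a negative one with a median of -0.50; 0 was called in either. Type 1 spontaneous microglia library 2 sits in this contrast, and without it the interaction's median was 0.81 with 36 of 37 positive. Library 4 of type 1 transplanted microglia sits in it too. It was the lowest of the 12 microglia libraries for 19 of the 37 members, against 3.56% of all tested genes.

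In MDM, transplanted against spontaneous tumours could be compared for type 1 only, with 4 libraries against 2. Transplanted MDM were lower at 16 members and higher at 0, beside 13.7% of all tested genes called, 7.96% lower and 5.79% higher. The 16 included 4 of 5 oligoadenylate synthetase genes, both Mx genes, 2 of 3 IFIT genes and 3 of 5 sensing and signalling genes. The median over the members was -1.95 against 0.03 over all genes, 35 of 37 were negative, and 26 had an unadjusted p under 0.05. Voom on the recovered reads called 17 lower and 0 higher. When libraries were rescaled to equal totals, the median over all genes became 0.54 and 11 members were called lower.

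The count rested on type 1 spontaneous MDM library 2, which stood apart at every member as given above. Without it, 1 member was lower and 1 higher, and the median was -0.39. The member still lower was Oasl2, a ubiquitin-like relative of the synthetases (-2.35 ± 0.66, adjusted p = 0.045), and the higher one was Igtp (1.72 ± 0.45, adjusted p = 0.033). Without library 1 in its place, 34 members were lower. Each of these fits leaves 1 spontaneous MDM library, which is assumed to vary like the other groups.

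Oasl2 stood at 3479, 3000, 2695 and 2600 in transplanted MDM, against 14901 and 80010 in spontaneous MDM. All 4 transplanted libraries lay below both spontaneous ones. Its log2 fold change was -3.56 ± 0.61 (adjusted p = 0.00083). Oas2 lay between 225 and 595 in transplanted MDM, against 2479 and 15210 in spontaneous MDM (-4.0 ± 0.76, adjusted p = 0.0019), and at -2.69 ± 0.88 without spontaneous library 2 (adjusted p = 0.089). Phf11d, a PHD finger gene of the interferon response, stood at 547, 457, 474 and 617, against 2387 and 28218 (-3.98 ± 0.76, adjusted p = 0.002). For these 3 genes the lower spontaneous library also stood above every transplanted one, and Oasl2 alone kept its call when any 1 library was left out.

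Mx2, at 324, 181, 186 and 159 in transplanted MDM against 583 and 6104 in spontaneous MDM, was lower by -3.20 ± 0.76 (adjusted p = 0.0085). Mx1, at 1275, 473, 866 and 715 against 2095 and 30040, was lower by -3.34 ± 0.81 (adjusted p = 0.01). Oas1a stood at 4865, 2689, 2330 and 1952 in transplanted MDM, against 6593 and 42589 in spontaneous MDM (-2.59 ± 0.66, adjusted p = 0.013). Its transcripts resemble those of Oas1g, which can share its reads. Ifi44 (-2.37 ± 0.62, adjusted p = 0.015) and Ifit2 (-3.27 ± 0.87, adjusted p = 0.017) followed, and for Ifit2 the levels were 2546, 1888, 1559 and 1861 in transplanted MDM against 5220 and 66569 in spontaneous MDM. These 5 genes were not called without spontaneous library 2. The other members called lower were Dhx58, Ifit3, Rtp4, Oasl1, Ifitm3, Usp18, Stat2 and Ifih1, with log2 fold changes between -1.88 and -3.36. For 16 members every transplanted library lay below both spontaneous ones, as for 19.3% of all tested genes.

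The immunity-related GTPases had 0 of 3 called, with a median log2 fold change of 0.30. Iigp1 stood at 2626, 2758, 1712 and 1370 in transplanted MDM, against 396 and 4485 in spontaneous MDM, and had a log2 fold change of 0.61 ± 0.72. Without both type 1 spontaneous libraries numbered 2 it was higher in transplanted MDM by 2.36 ± 0.53 (adjusted p = 0.016), beside Igtp at 1.72 ± 0.41. Without that pair of libraries 4 members were called in all, with Oas2 and Oasl2 lower. No member had every transplanted MDM library above both spontaneous ones, as 20.4% of all tested genes did.

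Upstream, 1 of 4 tested ligand genes, 4 of 9 receptor and kinase genes and 2 of 8 transcription factor genes were lower in transplanted type 1 MDM, and 1 receptor and kinase gene was higher. Ifnb1 stood at 3.2, 0, 0 and 0 in transplanted MDM, against 7.33 and 505 in spontaneous MDM (-5.50 ± 1.34, adjusted p = 0.01). With 3 libraries at 0, this fitted value depends on the added count. Irf7 (-2.81 ± 0.72, adjusted p = 0.013), Irf5 (-1.76 ± 0.31, adjusted p = 0.0012), Ifnar1 (-1.24 ± 0.34, adjusted p = 0.021) and Ifnar2 (-0.84 ± 0.26, adjusted p = 0.038) were lower. Ifnar1 stood at 3638 to 4119 in transplanted MDM, against 7801 and 10471 in spontaneous MDM. Ifnar2 stood at 5162 to 7426 in transplanted MDM, against 10294 and 11654 in spontaneous MDM, so for both receptor genes the spontaneous libraries lay close together and above the transplanted ones. Irf9 (-0.63 ± 0.25, adjusted p = 0.10) and Irf3 (0.71 ± 0.31, adjusted p = 0.15) were not called. Of 18 sensing genes 7 were lower, including the DNA sensor Cgas (-2.50 ± 0.42), Ifi204 (-3.54 ± 0.81) and Tlr9 (-3.91 ± 0.99). Of 58 other interferon-stimulated genes 15 were lower and 1 higher, with Oas1g at -4.31 ± 0.67 and Ifi27 at 2.02 ± 0.44. Of 19 genes of interferon gamma 1 was called, Gbp6, which was higher (1.73 ± 0.54, adjusted p = 0.039). T and NK cell markers were higher in transplanted MDM for 10 of 15 genes, with sums of 217945 to 245824 against 11764 and 21844 in spontaneous MDM, and microglia marker sums were 13782 to 22351 against 104399 and 235489. The part of either in these differences was not tested.

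Type 2 against type 1 MDM could be compared in transplanted tumours, with 2 libraries against 4, the same 4 that served in the comparison above. Type 2 MDM were higher at 2 members, Phf11d and Oasl2, and lower at 0, beside 5.91% of all tested genes called, 2.96% higher and 2.96% lower. The median over the members was 1.14 against -0.03 over all genes, 35 of 37 were positive, 13 had an unadjusted p under 0.05, and voom called 3 higher. Phf11d stood at 1440 and 10395 in type 2 MDM, against 547, 457, 474 and 617 in type 1 MDM (2.89 ± 0.76, adjusted p = 0.031). Oasl2 stood at 5733 and 28169 in type 2 MDM, against 3479, 3000, 2695 and 2600 in type 1 MDM (2.12 ± 0.61, adjusted p = 0.046). In both the lower type 2 library lay above all 4 type 1 libraries, as it did for 11 members in all and for 17% of all tested genes, while 16.6% lay entirely below. Oasl2 lost its call in 14 of the 21 fits that left out 1 library, and Phf11d in 3.

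Next came Oas2 (2.35 ± 0.76, adjusted p = 0.075), at 1015 and 3775 in type 2 against 225 to 595 in type 1 MDM. The result rested on type 2 transplanted MDM library 3, since 0 members were called without it and the median was then 0.18, and 13 were called without library 1. Fitted to only those groups, the comparison called neither Phf11d (adjusted p = 0.0982) nor Oasl2 (adjusted p = 0.113), and called Ifitm1 higher (2.49 ± 0.38, adjusted p = 0.0437). Those libraries also differed in other cells' transcripts, with T and NK sums of 31248 in library 3 and 290382 in library 1, and microglia marker sums of 245626 and 35855. Microglia markers were higher in type 2 for 9 of 12 genes, and their part in the result was not tested. Upstream, the interferon gamma receptor gene Ifngr2 (1.45 ± 0.35, adjusted p = 0.022), Cgas (2.19 ± 0.42, adjusted p = 0.0059), Ifi204 (2.79 ± 0.81, adjusted p = 0.048), Oas1g (2.80 ± 0.67, adjusted p = 0.02) and Gm4951 (2.13 ± 0.61, adjusted p = 0.045) were higher in type 2. Ifnb1, Irf7, Irf9, Irf3, Ifnar1 and Ifnar2 were not called.

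Whether the cell types differed in these effects was tested directly over all groups. For cell type by tumour type, 0 members were called and 0 had an unadjusted p under 0.05, beside 0.0871% of all tested genes called; voom called 0. The smallest p belonged to Oas3 (-1.94 ± 0.93, adjusted p = 0.39), Ifitm2 (1.38 ± 0.71, adjusted p = 0.43) and Ddx58 (-1.16 ± 0.66, adjusted p = 0.47). For cell type by model, 0 members were called by limma-trend or voom and 1 had an unadjusted p under 0.05, beside 2.24% of all tested genes called, 0.976% higher and 1.26% lower. That was Stat2 (-1.39 ± 0.65, adjusted p = 0.28), followed by Oas2 (-1.34 ± 0.83, adjusted p = 0.42) and Xaf1 (0.81 ± 0.56, adjusted p = 0.47). Type 2 spontaneous MDM entered both tests as 1 library, and the standard errors of the 6 genes just named ran between 0.56 and 0.93 on the log2 scale.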

How the data were processed

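The deposited table holds log2-like values with a floor of 4.22. The submitters' processing notes name STAR 2.7.8a, DESeq2 and mm10, and the values fit DESeq2's variance-stabilising transformation. Per the labels' protocols, TRIzol-extracted RNA went into SMART-Seq v4 libraries; the strand of counting is not given in the sources used here, so antisense neighbours may share reads. Inverting that transformation gave whole reads (within 1e-06) for 100% of values, with 1 size factor per library. limma-trend 3.58.1 (R 4.3.3) was fitted to log2(normalised count + 1) of the 17216 genes that reached 10 in 3 or more libraries, with 1 mean for each of 8 groups and groups weighted equally. The rest ran in Python 3.11.15 (scipy 1.17.1, numpy 2.4.6, matplotlib 3.10.9, pandas 2.3.3). The scripts were tested on simulated data. Members, lists and tests were chosen with earlier results of these data known.

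Genes described in full are members called in a comparison, at most 8 per comparison by smallest p, otherwise 3, with up to 4 genes of each other pathway list and Ifnar1, Ifnar2, Irf9, Irf7, Irf3 and Ifnb1; Cmpk2, Rsad2, Rtp4, Xaf1, Isg15, Igtp, Irgm1, Eif2ak2, Herc6 and Oasl1 outside this rule, and the fits without both type 1 spontaneous libraries numbered 2 and without all 3 libraries that stood apart, were chosen after their values were seen. Alternatives tried were voom, array weights, a replicate block, the deposited values untransformed, quantile normalization, scaling to equal totals, filters at 50 or none, a pseudocount of 8, fits of only the compared groups or within a tumour class, and leaving out libraries. Fold changes of low genes are understated on this scale, and intervals cover spread between libraries only.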

Additional observations from a re-analysis of the deposited data

Results flagged for a closer look

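Among the 37 member levels of type 1 transplanted MDM, the only group of 4 libraries, 1 held a library far from its fellows. Ifit3 stood at 7975 in library 1, against 3794, 4248 and 4116 in libraries 2, 3 and 4, a gap large for the range of the group. Such a rule marks about 1 in 20 groups by chance.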

How the results depend on the processing

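Counts of called members changed with several settings. For MDM against microglia they were 11, and 7 with no filter, 17 after rescaling, 9 without the 8 libraries rich in other cells, 5, 4 and 3 within type 1 transplanted, type 2 transplanted and spontaneous tumours, and 6 to 25 when 1 library was left out. Within type 2 transplanted tumours Oas3 was -0.16 and Stat2 -0.11, and without the 3 libraries that stood apart Herc6 was -0.57. For transplanted against spontaneous microglia the count was 1, and 2 with quantile normalization, 8 with array weights (3 higher, 5 lower), 0 without the 8 libraries rich in other cells, 0 within type 1 tumours and 1 to 3 with 1 library left out. For type 2 against type 1 transplanted MDM it was 2, and 0 with no filter, 4 with quantile normalization, 1 after rescaling, 1 with only those groups (Ifitm1, neither of the 2) and 0 to 13 with 1 library left out. For transplanted against spontaneous type 1 MDM it was 16, and 10 with no filter, 3 with only those groups and 2 to 34 with 1 library left out. For tumour type by model in microglia it was 0, and 1 with array weights, Oas2 (3.69 ± 0.76, adjusted p = 0.028).

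Without both type 1 spontaneous libraries numbered 2, the counts of the first 5 comparisons were 12, 1, 4, 8 and 4, in the order MDM against microglia, type 2 against type 1 microglia, transplanted against spontaneous microglia, type 2 against type 1 transplanted MDM and transplanted against spontaneous type 1 MDM. Without type 2 transplanted MDM 3 as well they were 15, 3, 8, 0 and 6, and 1 in each of the cell type interactions. The cause of these changes was not tested. Rescaling moved the median of all genes to 0.29, 0.54, 0.17 and -0.29 for MDM against microglia, type 1 MDM, microglia by model and transplanted MDM by type, and the share of calls that were higher to 67.4%, 75.5%, 64.8% and 29.5%, against 53.7%, 42.1%, 54.6% and 50% without it.

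Same-numbered MDM and microglia libraries deviated together from their group means, with correlations of 0.04 to 0.24, each highest with its own number. In a group of 2 MDM libraries the deviations mirror each other, so its matches are not separate. The numbers therefore only hint at a shared tumour. With the replicate block (consensus correlation 0.14) 13, 0, 1, 2, 16, 0, 0 and 0 members were called. Not run were the fits without the 8 libraries for the 2 comparisons within MDM, fits of only the compared groups where all 8 enter, and MDM against microglia without the lone type 2 spontaneous MDM library. Without the 8 libraries, MDM against microglia covered no type 1 transplanted tumours, so its count belongs to another contrast. Depth was ample for the members. The small and unequal groups limit the MDM comparisons.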

Other observations

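Cxcl10, a chemokine gene induced by interferons, is not a member and was chosen, as was Ifi204, after its values were seen. It stood at 163033 and 2243 in type 1 spontaneous MDM libraries 2 and 1, at 48736 and 5449 in type 2 transplanted MDM libraries 3 and 1, and between 1810 and 2757 in the other 5 MDM libraries. In microglia it was highest at 33047 in type 1 spontaneous library 2, against 2076 to 11684 in the other 11 libraries. Ifi204, a DNA-binding member of the sensing list, had 40781 and 4277 in the first pair and 28142 and 2213 in the second, against 945 to 3509 in the other 5. In microglia it was highest at 10324 in type 1 spontaneous library 2, against 1570 to 8549 in the other 11.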
